A study of Mus musculus with 122 samples.

Results

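The 10 genes Nodal, Gdf3, Tgfb1, Tdgf1, Lefty1, Lefty2, Cited1, Smad7, Id1 and Id3 belong to the signalling of Nodal and other transforming growth factor beta (TGF-beta) ligands, and they were 10 of the 52459 genes in a table of normalized RNA-seq counts. They were chosen from earlier results of the same RNA-seq table, so the RNA values are given as a description of these libraries and the calls below are not independent evidence for the choice. The paper had already reported CTCFL binding at the Tgfb1 promoter together with higher Tgfb1 RNA, and higher Cited1 RNA. The peaks of the FLAG-tagged proteins are therefore given as a description too.

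The cells were mouse embryonic stem (ES) cells of the E14Tg2a background, grown without feeders in serum with LIF and the inhibitors of 2i medium. In every line both Ctcf alleles carried an auxin-inducible degron with eGFP and TIR1 was expressed from Rosa26, so that auxin (IAA, 500 µM) degrades the endogenous CTCF protein. A doxycycline-inducible FLAG-tagged transgene fused to mRuby2 was integrated at the Tigre locus in picked clones, whose number per line is not stated. It encoded CTCF, its germline paralog CTCFL (also called BORIS), CLC (the CTCF termini around the CTCFL zinc fingers) or LCL (the CTCFL termini around the CTCF zinc fingers). Each line was left untreated (U), or given IAA (I), doxycycline at 1 µg/ml (D) or both (ID). The RNA groups held 3, 3, 3 and 2 libraries (U, I, D, ID) in the CTCFL line, 2, 3, 3 and 3 in the CTCF line, and 2 of each in the LCL and CLC lines, 38 in all, for which the sample descriptions give 24 h of treatment and the treatment protocol 2 days. FLAG ChIPmentation libraries, 2 per condition, were also available for CLL (CTCFL with the CTCF N terminus) and LLC (CTCFL with the CTCF C terminus). Further ones, also 2 per condition, came from ID cells of the CTCF and CTCFL lines given RNase after permeabilization and before crosslinking, or a mock treatment. The sample descriptions give 48 h for CLL, LLC, mock and RNase libraries and 24 h for the other FLAG libraries, so between these sets time cannot be told apart from protein or from mock or RNase treatment. Nothing in the labels says that libraries of a group came from separate cultures, and p-values measure only the spread between these libraries. No library of a line without a transgene was used, so in each comparison doxycycline or IAA and the protein it induces or removes cannot be told apart. Nor can a line's transgene and the clone or clones used for it. Among the deposited RNA values the library names of LCL and CLC hold the term 2i, and those of CTCFL and CTCF do not. What this marks is not stated, and any such difference cannot be told apart from the line.

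Nodal and GDF3 are TGF-beta family ligands that signal through activin receptors with the help of the co-receptor TDGF1 (Cripto), and the receptors phosphorylate SMAD2 and SMAD3, which act with SMAD4 on target genes. LEFTY1 and LEFTY2 are secreted antagonists and themselves targets of Nodal signalling, so that the pathway limits its own range. SMAD7 is an inhibitory SMAD that blocks the receptors, CITED1 is a coactivator that can bind SMAD4, and ID1 and ID3 are inhibitors of helix-loop-helix factors best known as targets of bone morphogenetic protein (BMP) signalling. In ES cells Nodal signalling is active in culture, and Tdgf1, Lefty1 and Lefty2 are typical of the undifferentiated state.

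The depth could be recovered for 36 of the 38 libraries and ranged from 6847072 reads (CTCFL line, D replicate 3) to 49716771. In the CTCFL line Ctcfl rose from between 192.6 and 225.3 normalized counts in U to between 7570 and 9398 in D. In D it was between 1791 and 1829 in CLC and between 383.9 and 416.1 in LCL, against at most 42.71 in U of both. In ID it was between 5455 and 5572 in the CTCFL line, 2544 and 3441 in CLC, and 1120 and 1225 in LCL. Where effects with and without endogenous CTCF are compared, this difference in transgene RNA cannot be told apart from the loss of CTCF. Ctcf lay between 3550 and 3850 in the CTCF line libraries labelled D and between 4691 and 4712 in its U libraries, so induction of that transgene could not be seen at the RNA level and its D and ID libraries are named by label only. The paper shows the induced protein by FLAG western blot and mRuby2 flow cytometry, and FLAG peaks of CTCF D and CTCF ID are given below. The ES cell markers were high in every line (line means of Pou5f1 of 15139 to 28284 normalized counts). Among the primed epiblast markers Fgf5 stayed under 10 in every library. The line means of the others were 32.9 to 87.9 for Pou3f1, 206 to 939 for Otx2 and 946 to 1311 for Dnmt3b. The summed level of 5 primitive endoderm markers was 3191 to 5526 in the CTCFL and CTCF lines and 516.5 to 1067 in the LCL and CLC lines.

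A gene was called changed when the limma fit over all genes of a line, on log2(normalized count + 1), gave both a log2 fold change beyond 1 in size and an adjusted p below 0.01. All 10 genes passed the filter on low values in every line. Between conditions within a line, 19 of the 160 gene and comparison pairs were called, 9 upward and 10 downward. Lefty2 was called in 5 of the 16 comparisons, always lower, Cited1 in 4, always higher, and Tgfb1 in 3 (higher) and Tdgf1 in 3 (lower), all of those of Tgfb1 and Tdgf1 in the CTCFL line. Nodal and Smad7 were called in none.

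In the CTCFL line 3 of the 10 genes were called in D against U, where 5.9% of 16840 genes tested were called, and the same number in ID against U (19.6% of genes). In ID against I, both without endogenous CTCF, 5 of the 10 were called against 7.83% of genes, and in I against U 1 of 10 against 9.58%. The calls of the CTCF line were 1 of 10 in I against U (10.9% of 16705 genes), 1 in the libraries labelled D against U (0.455%), 1 in those labelled ID against U (14.9%) and 0 in ID against I (5.06%). LCL gave 0 in I against U (9.58% of 15274 genes), 1 in D against U (1.91%), 2 in ID against U (12.5%) and 0 in ID against I (8.49%). For CLC the counts were 0 in I against U (12.8% of 15337 genes), 1 in D against U (0.6%), 0 in ID against U (6.47%) and 0 in ID against I (1.95%). Because the genes were selected with these comparisons known, nothing is read from their counts against those shares. The median log2 fold change of the 10 genes lay between -0.38 and 0.33 over the 16 comparisons, against -0.02 to 0.09 for all genes.

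**Figure D1:**
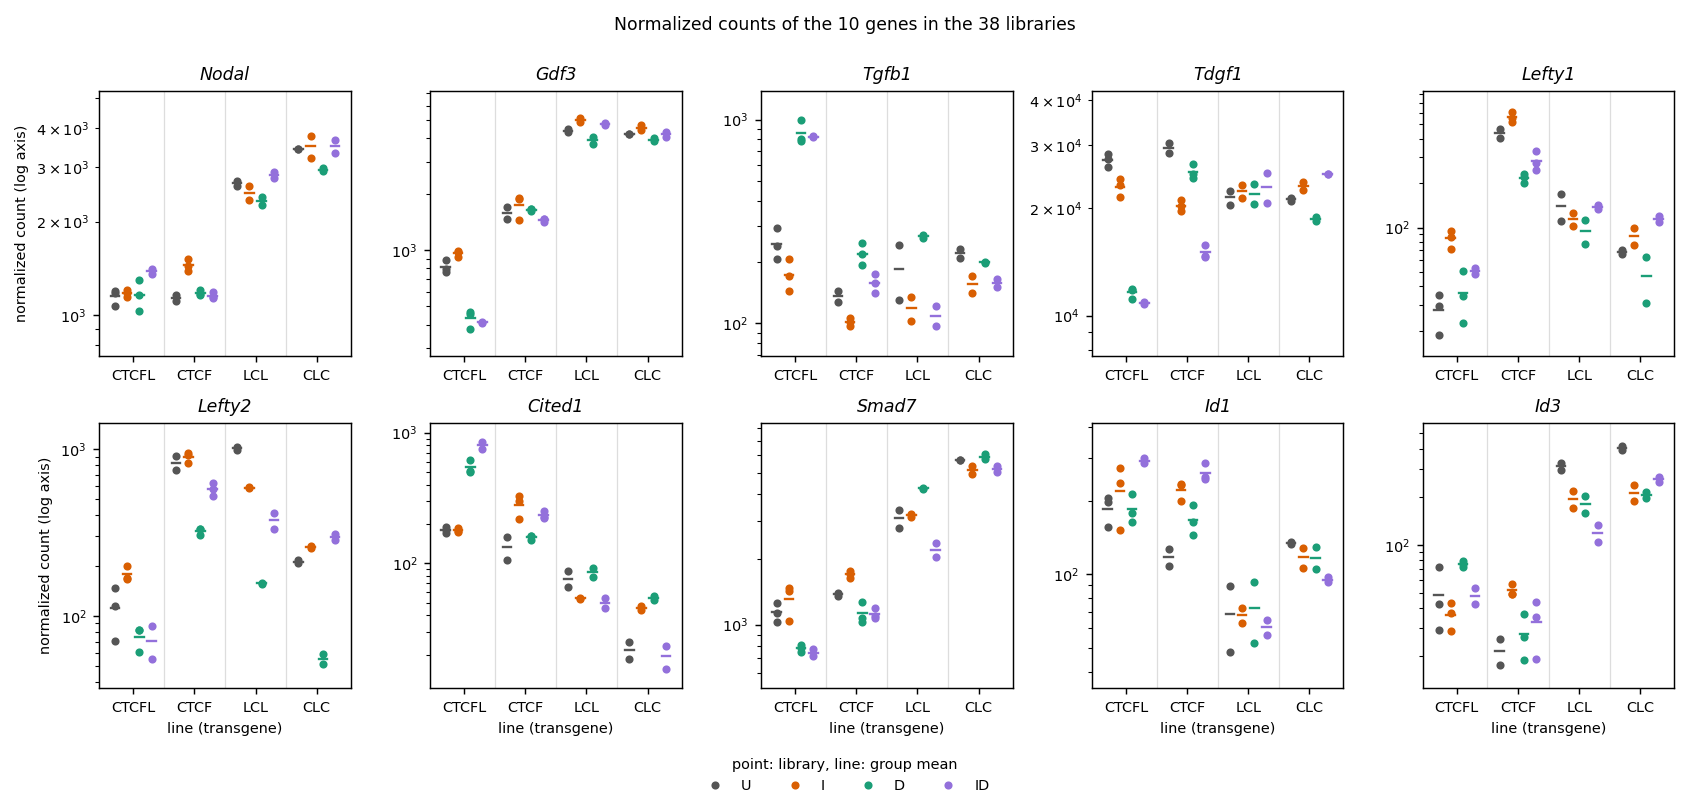
Normalized counts of the 10 genes on a log axis, 1 point per library and a bar at the group mean, with the CTCFL, CTCF, LCL and CLC lines from left to right in each panel and the conditions U, I, D and ID in colour. Tgfb1 and Cited1 stand higher in D and ID of the CTCFL line, Tdgf1 and Gdf3 stand lower there, and Lefty2 is lowest in D in the CTCF, LCL and CLC lines.

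FLAG sites were defined as merged peaks present in both replicates of a condition. The windows below show sites near Lefty2, Tgfb1, Nodal and Tdgf1, whose link to the RNA results was not tested. Each is 151 bases around the mean of the summits in the condition where the site was strongest, on the strand of the gene, on GRCm38 and 5′ to 3′. Capitals mark matches, on either strand, to CCNNNAGNNGGC, letters that follow the core of the CTCF motif. These letters were found in 2.47% of windows of the same length moved 10 kb away from the peaks of a CTCF ID library, and in 40.6% and 51.8% of the peaks of the CTCF ID replicates, 33.8% and 25.9% of those of CTCFL ID. The first replicates of CLL D and LLC D stood apart, with the letters in 0.893% and 0.548% of peaks, and LLC D replicate 2 held them in 3.7%. Leaving out CLL D replicate 1 changed the number of the 10 genes with a site at a start in CLL D from 1 to 2, and leaving out LLC D replicate 1 left it at 1.
Lefty2 upstream site, chr1:180874151-180874301, 18.9 kb before a start, intergenic, in 10 of 12 conditions: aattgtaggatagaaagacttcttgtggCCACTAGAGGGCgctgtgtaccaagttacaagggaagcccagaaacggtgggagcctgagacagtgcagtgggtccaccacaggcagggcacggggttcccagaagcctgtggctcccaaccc
Lefty2 intron site, chr1:180896132-180896282, in 11 of 12 conditions: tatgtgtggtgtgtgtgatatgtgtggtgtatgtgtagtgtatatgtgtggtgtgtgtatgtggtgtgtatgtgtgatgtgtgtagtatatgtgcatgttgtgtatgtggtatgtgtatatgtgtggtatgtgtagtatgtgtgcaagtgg
Tgfb1 intron site, chr7:25688224-25688374, strongest in CTCFL ID: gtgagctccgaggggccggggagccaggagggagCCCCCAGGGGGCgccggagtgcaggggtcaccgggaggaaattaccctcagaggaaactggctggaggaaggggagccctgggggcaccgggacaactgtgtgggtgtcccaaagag
Nodal coding exon site, chr10:61423418-61423568, in 9 of 12 conditions: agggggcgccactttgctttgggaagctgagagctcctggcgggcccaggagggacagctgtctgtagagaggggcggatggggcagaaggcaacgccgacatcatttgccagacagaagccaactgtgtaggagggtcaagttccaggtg
Tdgf1 downstream site, chr9:110922852-110923002, intergenic, in 11 of 12 conditions: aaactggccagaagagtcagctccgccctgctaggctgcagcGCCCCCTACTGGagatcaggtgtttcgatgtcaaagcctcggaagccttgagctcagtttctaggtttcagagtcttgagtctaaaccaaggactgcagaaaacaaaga
The windows of the upstream site of Lefty2, the intronic site of Tgfb1 and the downstream site of Tdgf1 held the letters. Those of the intronic site of Lefty2 and the exonic site of Nodal did not. The Nodal window begins with bases that match the end of the letters (AGNNGGC), and a match across its edge was not searched for.

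The promoters of the genes that rose in the CTCFL line are shown as given by RefSeq for GRCm38.p6, restricted to bases outside annotated exons, with the same meaning of capitals. Cited1 has several start sites, and the stretch shown is the one that lies inside its FLAG site.
Cited1, chrX:102250947-102251026, minus strand: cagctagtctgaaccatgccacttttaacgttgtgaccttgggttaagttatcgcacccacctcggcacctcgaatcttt
Tgfb1, chr7:25686752-25687001, plus strand: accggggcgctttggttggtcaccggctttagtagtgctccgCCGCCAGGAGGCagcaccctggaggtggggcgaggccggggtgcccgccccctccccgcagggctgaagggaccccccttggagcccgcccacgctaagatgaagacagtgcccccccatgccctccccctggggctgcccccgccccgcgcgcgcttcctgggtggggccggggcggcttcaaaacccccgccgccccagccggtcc
The Tgfb1 promoter held the letters and the Cited1 stretch did not. Of all 32851 promoter entries of 300 bases, 8.61% held them. Promoter entries matched 5 of the 10 genes.

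Tgfb1 (ENSMUSG00000002603, chr7:25687002-25705077) encodes TGF-beta 1. In the CTCFL line its normalized count was 240, 292 and 207 in the U libraries and 206, 144 and 170 in I, while D gave 783, 990 and 805 and ID gave 834 and 817. The D and ID libraries did not overlap the others. The log2 fold change was 1.81 ± 0.15 (SE) for D against U (adjusted p = 1.39e-08), 1.76 ± 0.17 for ID against U (1.76e-08) and 2.26 ± 0.17 for ID against I (1.65e-09).
In the CTCF line Tgfb1 was 128 and 144 in U and 194, 246 and 219 in the libraries labelled D, a log2 fold change of 0.69 ± 0.15 (adjusted p = 0.0104) that was not called. LCL gave 130 and 241 in U and 271 and 263 in D, and CLC gave 230 and 210 in U and 198 and 200 in D. The doxycycline effect on Tgfb1, fitted over all lines, was lower than in the CTCFL line by a log2 value of -1.12 ± 0.26 in the CTCF line (adjusted p = 0.00251), -1.22 ± 0.28 in LCL (0.00143) and -1.95 ± 0.28 in CLC (4.96e-06). Without LCL U replicate 2, the U library with 241, the LCL difference was -0.77 and was no longer called, and the CTCF difference was not called without CTCFL U replicate 3 or CTCF U replicate 2.
In I the Tgfb1 level was below U by a log2 fold change of -0.51 ± 0.15 in the CTCFL line, -0.42 ± 0.15 in CTCF, -0.59 ± 0.25 in LCL and -0.50 ± 0.16 in CLC, with adjusted p-values from 0.0115 to 0.0655, none of them a call.

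The start of Tgfb1 carried FLAG sites in 9 of 12 conditions, the strongest in CTCFL ID (mean −log10 q of 31), followed by LCL ID (28.7), CTCFL D (28), CLL ID (23.3), LCL D (22.2), CLC ID (18.4), CTCF ID (17.5), CTCF D (13.1) and CLC D (6.06). The sites fell into an upstream group centred up to 0.373 kb before the nearest start and an intronic group. The latter had −log10 q of 31.9 and 24.1 in the CTCFL D replicates, 28.7 and 33.2 in CTCFL ID, 11.4 and 13 in CLC ID, 5.81 and 16 in CLL ID, 5.42 and 6.7 in CLC D and 6.02 and 4.95 in CTCF D, and was not a site in CTCF ID or in either LCL condition. A site 6.83 kb upstream appeared with full-length CTCFL alone, in both of its conditions. In all, 7 loci within 25 kb of the gene held a site in at least 1 condition.

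Nodal (ENSMUSG00000037171, chr10:61417972-61425338) was not called in any comparison. Its level was 1184, 1069 and 1200 in U of the CTCFL line, 1162 and 1111 in CTCF, 2610 and 2713 in LCL, and 3439 and 3436 in CLC. The CTCFL and CTCF lines overlapped, and LCL and CLC lay above both. The farthest from 0 of its log2 fold changes between conditions of a line was 0.35 ± 0.07 in I against U of the CTCF line (adjusted p = 0.0013), where I gave 1436, 1517 and 1392.
FLAG sites at the Nodal start were found in 7 of 12 conditions with a mean −log10 q of at most 11.8 (CTCF ID). Stronger sites lay farther off. A site 18.3 kb upstream, in 8 of the 12 conditions, had −log10 q of 84.7 and 71.3 in CTCF ID, the highest near the gene. The exonic site printed above had −log10 q of 54.2 and 73.3 in CLC ID, 68.9 and 52.3 in CTCFL ID and 34.6 and 22.5 in CTCF ID, and it also appeared in 4 of the 4 mock- or RNase-treated conditions.

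Gdf3 (ENSMUSG00000030117, chr6:122605403-122610087) encodes a Nodal-related ligand. It was lower with CTCFL: the CTCFL line gave 883, 769 and 798 in U, 992, 924 and 983 in I, 455, 469 and 378 in D, and 413 and 409 in ID. No D or ID library reached the lowest U library. ID against I was called, with a log2 fold change of -1.23 ± 0.12 (adjusted p = 5.06e-08), whereas D against U (-0.91 ± 0.11, adjusted p = 1e-06) and ID against U (-0.99 ± 0.12, 4.16e-07) passed the test but not the size threshold. In the CTCF line U gave 1714 and 1479 and the libraries labelled D 1671, 1623 and 1679, which overlap. The doxycycline effect was higher than in the CTCFL line by 0.97 ± 0.13 in CTCF, 0.74 ± 0.13 in LCL and 0.81 ± 0.13 in CLC (adjusted p from 1.6e-06 to 9.79e-05), each under the size threshold. Gdf3 had a FLAG site at a start in CTCFL D alone, the weakest of those at the starts (mean −log10 q of 3.61), 2.87 kb into the gene.

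Tdgf1 (ENSMUSG00000032494, chr9:110939603-110946158) was the most abundant of the 10 genes per kilobase of exon in U of each line (8060 to 11221 normalized counts per kb, the next being 549 for Nodal in the CTCFL line, 659 for Gdf3 in CTCF, 1819 for Gdf3 in LCL and 1747 for Gdf3 in CLC). In the CTCFL line it was 28190, 26052 and 27367 in U, 21493, 23123 and 24033 in I, 11905, 11115 and 11806 in D, and 10932 and 10790 in ID. The groups with CTCFL lay below all others without overlap. It fell by a log2 fold change of 1.23 ± 0.06 in D against U (adjusted p = 5.12e-12), 1.32 ± 0.07 in ID against U (7.56e-13) and 1.07 ± 0.07 in ID against I (1.27e-10).
In the CTCF line Tdgf1 was 28508 and 30333 in U, 19628, 20983 and 20260 in I, 26519, 24251 and 24794 in the libraries labelled D, and 15782, 14612 and 14717 in those labelled ID. These 4 groups did not overlap, yet none of the differences was called, the farthest from 0 being ID against U at -0.97 ± 0.08 (adjusted p = 2.56e-07). LCL and CLC libraries ranged from 18337 to 25043 over all conditions. The doxycycline effect was higher than in the CTCFL line by 1.00 ± 0.10 in CTCF (adjusted p = 4.01e-08), 1.26 ± 0.11 in LCL (5.84e-10) and 1.04 ± 0.11 in CLC (3.64e-08). The CTCF value, at the size threshold, was not called without any 1 of 5 of the 11 libraries (CTCFL U replicate 1 or 3, CTCFL D replicate 2, CTCF U replicate 1 or CTCF D replicate 1), where it ranged down to 0.96. Of the 50-base words of its transcripts, 8.86% also occur in the pseudogene Tdgf1-ps1, whose reads may not be separable.
The site at the Tdgf1 start, in 8 of 12 conditions, was strongest in CTCF D (mean −log10 q of 26.1) and weaker in CTCFL D (10.8) and CTCFL ID (14.3). It lies over an untranslated region and held 1 match to the motif letters, shown with 6 bases on each side, chr9:110944492-110944515, minus strand: tgcggcCCAGAAGAGGGCaccaga. A further site 1.72 kb upstream was present in CTCFL D, CTCFL ID and CLC ID. The downstream site printed above was found in 11 of 12 conditions and overlapped RAD21 peaks in 8 of 16 libraries.

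**Figure D2:**
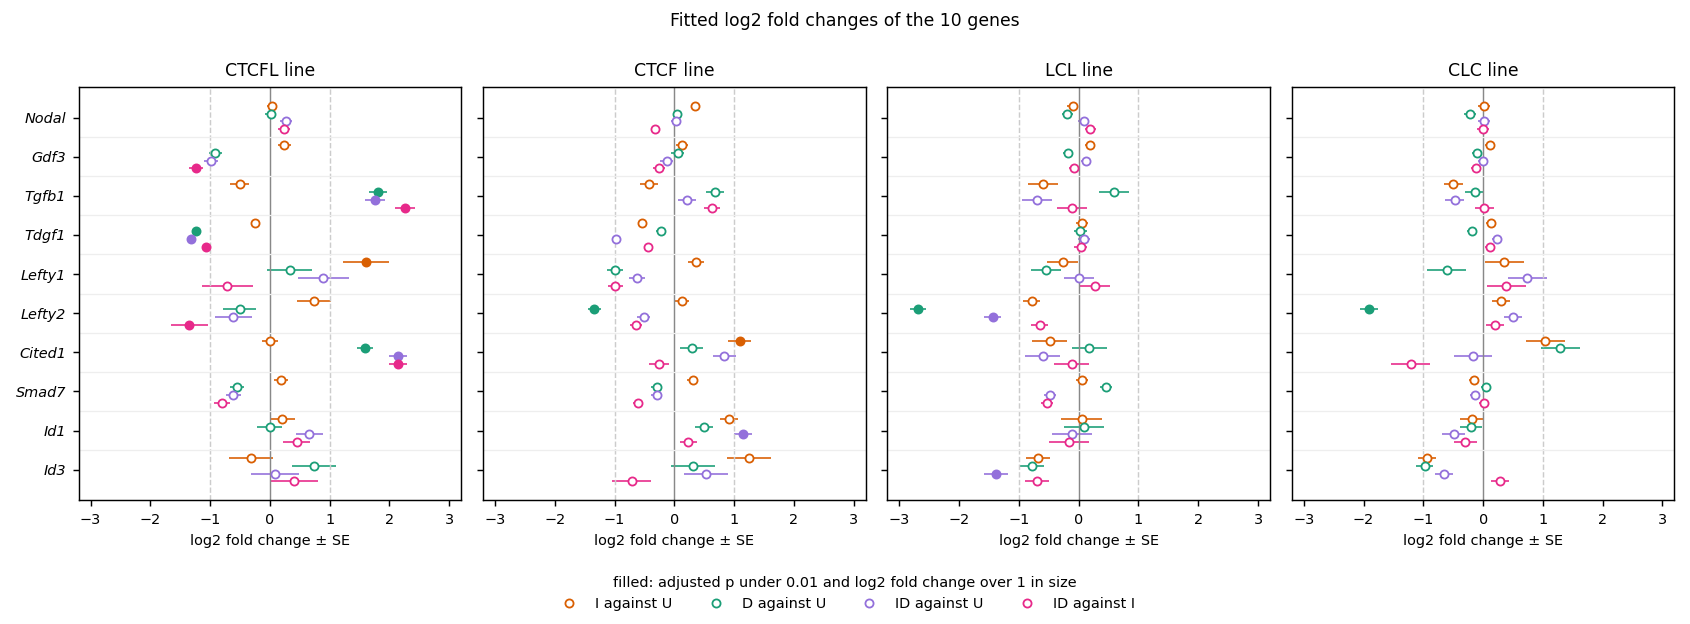
Log2 fold changes of the 10 genes on the log2(normalized count + 1) scale with SE bars, 1 panel per line and 1 colour per comparison, and filled points for called differences. The CTCFL panel holds the called points of Tgfb1 and Tdgf1, and the farthest called point to the left in the CTCF, LCL and CLC panels is Lefty2 in D against U.

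Lefty2 (ENSMUSG00000066652, chr1:180893108-180899103) was the gene called most often, and it was lower in D than in U in the CTCF, LCL and CLC lines. The CTCF line gave 905 and 745 in U, 826, 917 and 951 in I, 334, 331 and 306 in the libraries labelled D, and 522, 580 and 625 in those labelled ID. D lay below every other group, and ID between D and the groups without doxycycline. The log2 fold change was -1.34 ± 0.11 for D against U (adjusted p = 3.52e-05) and -0.64 ± 0.10 for ID against I (adjusted p = 0.00022), the second under the size threshold.
In the LCL line Lefty2 was 993 and 1032 in U, 584 and 589 in I, 154 and 158 in D, and 416 and 333 in ID. The 4 groups did not overlap. It fell by 2.69 ± 0.14 on the log2 scale in D against U (adjusted p = 3.07e-10) and by 1.44 ± 0.14 in ID against U (5.93e-08), while I against U gave -0.79 ± 0.14 (0.000143) and ID against I -0.65 ± 0.14 (0.000757).
In the CLC line it was 206 and 215 in U, 255 and 261 in I, 59.1 and 51.5 in D, and 284 and 310 in ID. D against U was -1.91 ± 0.15 (adjusted p = 0.000964), and ID against I was 0.20 ± 0.15 (0.405). The D libraries lay below all others and the ID libraries above all others. Leaving out any 1 of the 4 U and D libraries kept the CLC value between -2.01 and -1.81 but ended the call, at an adjusted p of up to 0.0247.
The difference between the doxycycline effect without and with endogenous CTCF, (ID − I) − (D − U), was 2.04 ± 0.20 in LCL (adjusted p = 2.44e-07) and 2.11 ± 0.21 in CLC (0.000735), both called, and 0.70 ± 0.15 in CTCF (0.00634), which was not. Transgene RNA also differed between D and ID of LCL and CLC, as given above.
In contrast, no D against U call was made in the CTCFL line, where Lefty2 was 70, 147 and 115 in U, 166, 200 and 167 in I, 60.2, 82.1 and 82.4 in D, and 86.3 and 55.3 in ID. The U values overlapped those of D and ID, and I lay above all other groups. D against U was -0.51 ± 0.28 (adjusted p = 0.166), ID against I was -1.35 ± 0.31 (0.00155) and the difference of the effects was -0.84 ± 0.42 (0.177). The call in ID against I was lost without ID replicate 2 (log2 fold change of -1.03) and with edgeR or DESeq2 on recovered reads. Compared with the CTCFL line, the doxycycline effect was lower by -2.18 ± 0.28 in LCL (adjusted p = 8.23e-07) and -1.40 ± 0.28 in CLC (0.000467), and by -0.83 ± 0.27 in CTCF (0.0239), which was not a call.

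Lefty1 (ENSMUSG00000038793, chr1:180935022-180938400) lies downstream of Lefty2 on the same strand and encodes the other Lefty protein. Low values were found in the CTCFL line, with 18.9, 29.6 and 34.8 in U and 71.8, 94.8 and 86.9 in I, groups that did not overlap, and the log2 fold change of 1.60 ± 0.38 was called (adjusted p = 0.00177). The call was lost without U replicate 1 or I replicate 2 and with edgeR. D gave 34.5, 50.8 and 22.5 and ID 53.5 and 48.2.
The CTCF line had the highest levels, 466 and 402 in U, 549, 521 and 604 in I, 201.03, 220 and 230 in the libraries labelled D, and 274, 329 and 247 in those labelled ID. D lay below U in every library (-0.99 ± 0.13, adjusted p = 0.00103) and ID below I (-0.99 ± 0.12, 3e-05), both just under the size threshold. LCL gave 111 and 169 in U and 113 and 77 in D, and CLC 70.1 and 66.4 in U and 31 and 63.3 in D, without a call. Of the 50-base words of Lefty1 transcripts 17.9% occur in Lefty2, and 12% of those of Lefty2 in Lefty1, so reads of the pair may have been split or lost in counting.

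The FLAG sites near Lefty2 and Lefty1 formed 8 loci within 25 kb of each gene, 3 of which lie between the genes and were counted for both. The upstream site of Lefty2 had −log10 q of 113 and 84.1 in CTCF ID, 80.8 and 72.4 in CTCFL ID and 19.7 and 23.8 in CLC D, and it overlapped peaks of RAD21, a cohesin subunit, in 11 of 16 libraries, whose peak numbers ran from 168 to 22773. A site between the genes, 25.4 kb behind the Lefty2 start, was about as strong in CTCF ID (107 and 88.3) and CTCFL ID (81.2 and 70.8). It was not a site in CLC D, CLL D or LLC D.
The intronic site, 1.5 kb behind the start, behaved otherwise. It was the sole site at a member's start in CLL D, LLC D and LLC ID, was weak in every condition (mean −log10 q from 3.82 in CTCF D to 10.8 in LLC ID, peak fold enrichment from 2.36 to 6.23), and occurred in 3 of the 4 mock- or RNase-treated conditions and under RAD21 peaks in 9 of 16 libraries. The window of this intronic site, printed above, is largely a TG repeat. Whether its peaks reflect binding of the tagged proteins was not tested. LCL ID had no site within 3 kb of a Lefty2 start, the nearest being 3.54 kb away.
At Lefty1, sites lay within 3 kb of a start in 8 of 12 conditions, strongest in LCL ID (mean −log10 q of 23.9) and CTCF D (17.5).

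Cited1 (ENSMUSG00000051159, chrX:102247381-102252181) rose in the CTCFL line. U gave 189, 179 and 171, I gave 186, 178 and 174, D gave 621, 511 and 498, and ID gave 743 and 851. The U and I libraries were alike in range and every D and ID library was above them, with ID above D. The log2 fold change was 1.59 ± 0.14 in D against U (adjusted p = 1.76e-08) and 2.14 ± 0.15 both in ID against U (1.32e-10) and in ID against I (7.22e-10).
In the CTCF line U gave 160 and 105, I 219, 328 and 297, the libraries labelled D 151, 163 and 162, and those labelled ID 222, 251 and 225. I against U was called at 1.09 ± 0.19 (adjusted p = 0.000422) but not without U replicate 2 or I replicate 2, and D against U was 0.29 ± 0.19 (0.309). In LCL it lay between 45.2 and 92.2 in all libraries. In CLC it was 18.6 and 24.9 in U, 43.8 and 47 in I, 52.3 and 56.2 in D, and 23.3 and 15.5 in ID, so each single treatment went with higher values and the double treatment did not. The difference of the doxycycline effects in CLC was -2.50 ± 0.46 (adjusted p = 0.0066), a call that was kept without I replicate 1 but lost without any other 1 of the 8 libraries or without the filter on low values.
Against the CTCFL line the doxycycline effect was lower by -1.30 ± 0.27 in CTCF (adjusted p = 0.000717) and -1.42 ± 0.28 in LCL (0.000377), the former not called without CTCF U replicate 1. For CLC it was -0.29 ± 0.28 (0.487), so a difference between CLC and CTCFL was not shown.
A single FLAG locus (chrX:102250365-102251308) was found within 25 kb of Cited1, at a start, and of the 12 conditions only those with full-length CTCFL held it. Its −log10 q was 19.4 and 18.5 in the CTCFL D replicates and 14 and 13.4 in those of CTCFL ID, with fold enrichments of 6.3 to 7.69. The nearest sites of the other conditions were at least 30.8 kb away. The mock- and RNase-treated CTCFL ID libraries, with 7130 and 2322 sites, had no site there.

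**Figure D3:**
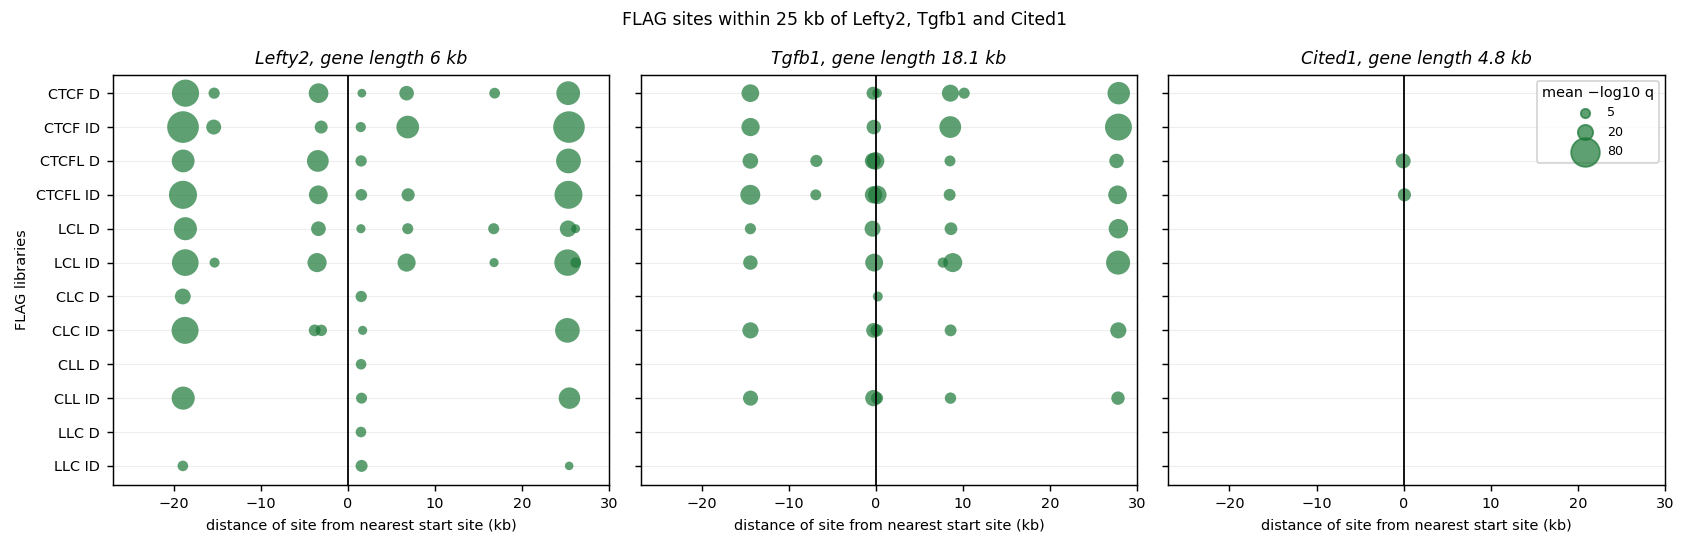
FLAG sites near Lefty2, Tgfb1 and Cited1 by distance in kb from the nearest annotated start site (negative is upstream), with 1 row per FLAG condition and circle area growing with the mean −log10 q of the replicates. Lefty2 has strong sites on both sides and a weak one 1.5 kb inside the gene in 11 of 12 rows, and Cited1 has sites in the CTCFL D and CTCFL ID rows alone.

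Smad7 (ENSMUSG00000025880, chr18:75367529-75395935) was not called within any line. For the CTCFL line it was 1263, 1024 and 1130 in U, 1470, 1432 and 1034 in I, 749, 781 and 805 in D and 714 and 771 in ID. Every D and ID library lay below those of U and I, with a log2 fold change of -0.54 ± 0.12 for D against U (adjusted p = 0.000846). In the CTCF line it was 1403 and 1349 in U and 1769, 1637 and 1712 in I. The libraries labelled D gave 1277, 1069 and 1029 and those labelled ID 1095, 1071 and 1196, also below U and I. In LCL the order was the opposite for D, with 2796 and 3367 in U, 4246 and 4218 in D and 2036 and 2373 in ID, and D against U was 0.46 ± 0.10 (0.00253). The doxycycline effect of LCL was higher than that of the CTCFL line by 1.01 ± 0.16 (adjusted p = 1.68e-05), a call that was lost without CTCFL U replicate 1, CTCFL D replicate 1 or LCL U replicate 1, and in LCL the effect without endogenous CTCF differed from that with it by -0.999 ± 0.143 (2.07e-05), at the size threshold and not over it. CLC held the highest levels, 5689 and 5739 in U, and no condition there moved by over 0.16 on the log2 scale. CTCFL D and LCL ID had a site at a start (mean −log10 q of 4.7 and 7).

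Id1 (ENSMUSG00000042745, chr2:152736251-152737410) was 127 and 108 in U of the CTCF line, 198, 234 and 231 in I, and 246, 286 and 250 in the libraries labelled ID. I and ID lay above U, and ID against U was called at 1.14 ± 0.15 (adjusted p = 2.99e-05), with I against U at 0.91 ± 0.15 (0.000306). For the CTCFL line the values were 197, 205 and 156 in U and 298 and 285 in ID, not a call (0.66 ± 0.23, adjusted p = 0.0181), and LCL and CLC libraries ranged from 47.9 to 135.
Id3 (ENSMUSG00000007872, chr4:136143497-136145755) was 293 and 327 in U of LCL, 169 and 218 in I, 157 and 203 in D, and 133 and 105 in ID. Every treated library lay below U and ID against U was called at -1.39 ± 0.20 (adjusted p = 1.17e-05). In CLC it was 395 and 416 in U, 189 and 236 in I, 198 and 213 in D, and 267 and 249 in ID. There I against U was -0.94 ± 0.15 (0.00132) and D against U -0.98 ± 0.15 (0.00899), both under the size threshold, and the difference of the doxycycline effects was called at 1.27 ± 0.21 (0.00459), though not without U replicate 1 or 2, D replicate 1 or 2, or ID replicate 1 or 2. In the CTCFL and CTCF lines Id3 stayed under 80 normalized counts in every library. The doxycycline effect on Id3 was lower than in the CTCFL line by -1.53 ± 0.43 in LCL (adjusted p = 0.00922) and -1.72 ± 0.43 in CLC (0.00417). The LCL difference was called without CTCFL U replicate 1 and lost without any other single library or without the filter on low values, and the CLC difference was lost without CTCFL U replicate 3 or any of the CLC U and D libraries. Neither Id gene had a FLAG site within 3 kb of a start, and their nearest sites in CTCF D were 6.39 kb (Id1) and 5.3 kb (Id3) away.

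The comparisons between effects called between 0 and 6 of the 10 genes each. The doxycycline effect differed without and with endogenous CTCF for 0 of the 10 genes in the CTCFL line (2.71% of genes), 0 in CTCF (2.74%), 1 in LCL (10.4%) and 3 in CLC (6.08%). The unadjusted p was under 0.05 for 5379 of all genes in that test in the CTCFL line and 5209 in the CTCF line. The IAA effect, in which no transgene was induced, was called different from the CTCFL line for 0 genes in CTCF (0.37%), 2 in LCL (2.86%) and 1 in CLC (3.63%). Those in LCL were Lefty1 at -1.87 ± 0.40 (adjusted p = 0.00118) and Lefty2 at -1.52 ± 0.28 (0.000275), and that in CLC was Cited1 at 1.04 ± 0.28 (0.00862), which was lost under 5 of 7 other settings, edgeR and DESeq2 among them, and without any 1 of 9 of the 10 libraries. The Lefty1 difference was lost without LCL U replicate 2 or LCL I replicate 2. The doxycycline effect was called different from that of the CTCFL line for 3 genes in CTCF (3.5%), 6 in LCL (5.06%) and 4 in CLC (5.06%), as given by gene above. These comparisons share the CTCFL libraries.

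In the CTCFL line the summed level of 8 ES cell markers was 109350 to 117011 in U, 92544 to 93742 in I, 81261 to 84231 in D and 65278 to 67279 in ID, all markers being detected. The sum of the primitive endoderm markers was 4741 to 5526 in U and 3859 to 4318 in D, that of 4 trophoblast markers 671.2 to 797.5 and 855.4 to 1024, that of 4 fibroblast markers 819.8 to 1023 and 1176 to 1440, and that of 3 neural markers 2612 to 3160 and 1671 to 1914. The mean over this line was 2875 for Nes against 206 for Sox1 and 6.75 for Pax6. It was 826 for Krt8 against 125 for Hand1, 24 for Cdx2 and 1.47 for Elf5. It was 720 for Thy1 and 578 for Col1a1 against 20.9 for Col1a2 and 3.64 for Postn. The trophoblast, fibroblast and neural sums thus follow mainly Krt8, Thy1, Col1a1 and Nes. For D against U in the other lines, the ES cell marker sum was 115089 to 118743 against 126699 to 128145 in CTCF, 206295 to 208066 against 183171 to 191008 in LCL, and 195744 to 202310 against 209525 to 210975 in CLC. In the same comparison the fibroblast sum was 1455 to 1719 against 1034 to 1074 in CTCF, 672.3 to 712.9 against 380.3 to 390 in LCL, and 342.7 to 417.6 against 303.1 to 327.4 in CLC. The neural sum was 2122 to 2221 against 3066 to 3400 in CTCF, 1739 to 1743 against 2324 to 2862 in LCL, and 2292 to 2425 against 2128 to 2135 in CLC. The sum of 4 primed epiblast markers was 1139 to 1214 against 1688 to 1875 in CTCFL, 1320 to 1512 against 1770 to 1892 in CTCF, 2027 to 2072 against 2258 to 2448 in LCL, and 1623 to 1828 against 2590 to 2616 in CLC. The sum of 4 mesendoderm markers, Gsc among them, was 370 to 460.3 in D against 286.8 to 407.1 in U of CTCFL, which overlap. In ID of CTCFL it was 449.9 to 499.6. For D against U it was 294.4 to 302.8 against 341.4 to 345.8 in CTCF. In LCL it was 284.3 to 312.3 against 232.6 to 281.5, and in CLC 374.9 to 415.5 against 335.7 to 366.4. The part of these shifts in the results for Tgfb1, Cited1, Gdf3, Tdgf1 and Lefty2 was not tested. In bulk RNA fewer cells of a type and less RNA per cell cannot be told apart.

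FLAG sites within 3 kb of a start were found for 5 of the 10 genes in CTCF D, where 31.6% of 21938 protein-coding genes had one, and for 5 in CTCF ID (25%), 8 in CTCFL D (34.1%), 6 in CTCFL ID (32.1%), 5 in LCL D (32.1%), 5 in LCL ID (41%), 3 in CLC D (7.85%), 5 in CLC ID (21.5%), 1 in CLL D (0.939%), 3 in CLL ID (15.5%), 1 in LLC D (1.39%) and 1 in LLC ID (4.37%). Tgfb1, Tdgf1, Lefty1 and Lefty2 each had a site in 8 or more of the 12 conditions, Nodal in 7, Cited1 and Smad7 in 2, Gdf3 in 1 and Id1 and Id3 in none. The site counted for Lefty2, which is the sole one in CLL D, LLC D and LLC ID, was the intronic site in a TG repeat. CTCFL D had a site at each gene that was called there and also at Nodal, Gdf3, Lefty1, Lefty2 and Smad7, which were not. The number of peaks per FLAG library ran from 2239 (CLL D replicate 1) to 75509 (CTCF D replicate 2). The read depth of these libraries is unknown here, so a gene without a site is one where no peak was called in both replicates.

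**Figure D4:**
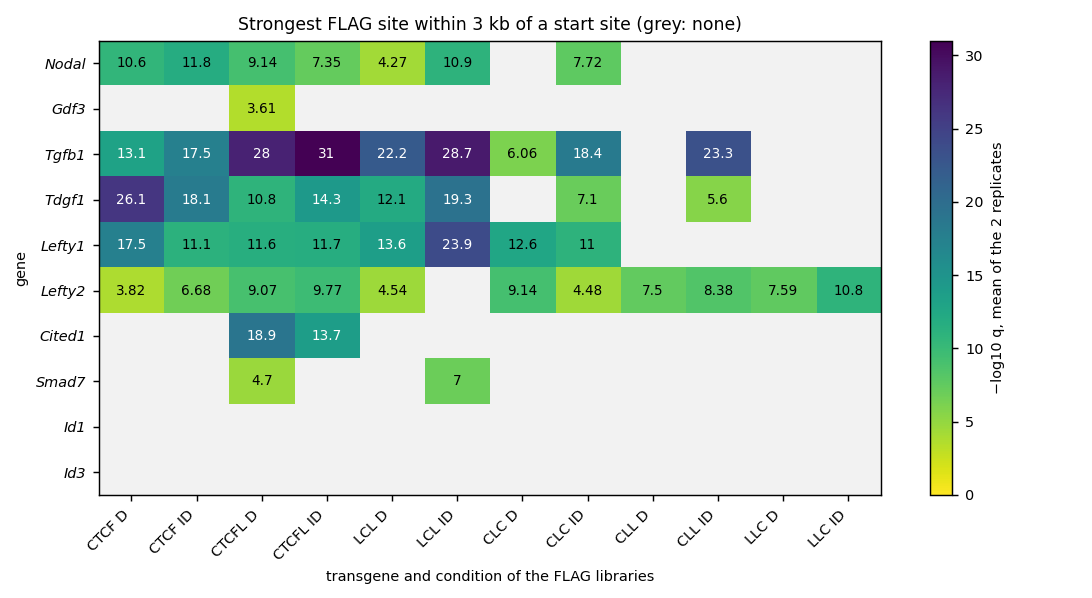
Mean −log10 q of the 2 replicates for the strongest FLAG site within 3 kb of a start site, with genes in rows, FLAG conditions in columns and grey where no site was found in both replicates. Tgfb1 in CTCFL ID is the highest value at 31, Cited1 has values in the CTCFL columns alone, and Lefty2 has a low value in every column but LCL ID.

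Other genes of the pathway were taken from a list of 79 ligands, receptors, antagonists, transducers and targets, of which 63 to 67 passed the filter in a line. In I against U, Ltbp1, which encodes a latent TGF-beta binding protein, was lower by -3.34 ± 0.20 in the CTCFL line, -3.39 ± 0.16 in CTCF, -4.22 ± 0.27 in LCL and -3.79 ± 0.22 in CLC. The CTCFL line had 1 list gene higher and 3 lower of 67 in this comparison (9.58% of all genes were called in either direction), CTCF 5 and 4 of 67 (10.9%), LCL 3 and 5 of 65 (9.58%), and CLC 6 and 4 of 63 (12.8%). Acvr1, a type I receptor of BMPs, was lower in the CTCFL (-1.84 ± 0.15) and CTCF lines (-1.65 ± 0.12), as was Tgfbi, a secreted matrix protein induced by TGF-beta (-1.50 ± 0.08 and -1.53 ± 0.08), which was also lower in CLC (-1.09 ± 0.09). Inhbb, an activin subunit, was lower in LCL (-3.09 ± 0.40) and CLC (-1.94 ± 0.22), and the ligand gene Bmp4 in LCL (-1.29 ± 0.15) and CLC (-2.02 ± 0.13). Fstl3, an activin-binding antagonist, was higher by 3.06 ± 0.22 in CLC and 1.16 ± 0.21 in CTCF.
In D against U few list genes were called: Gsc, a target of Nodal in the organizer, at -1.28 ± 0.34 in the CTCFL line, Id4 at -1.50 ± 0.21 in LCL, and 0 of 67 in CTCF and 0 of 63 in CLC, where 5.9%, 1.91%, 0.455% and 0.6% of all genes were called. For those last lines 5693 and 4513 of all genes had an unadjusted p under 0.05. In ID against U the counts were 2 higher and 11 lower in the CTCFL line (19.6% of all genes called), 3 and 7 in CTCF (14.9%), 6 and 8 in LCL (12.5%) and 6 and 4 in CLC (6.47%). The CTCFL line included lower Acvr1 (-2.83 ± 0.16), Ltbp1 (-2.75 ± 0.23) and Tgfbi (-1.58 ± 0.09). In ID against I there were 1 higher and 3 lower in CTCFL (7.83% of all genes called). The lower ones included Rgma, a BMP co-receptor, at -1.75 ± 0.17 and Ctgf at -1.42 ± 0.10. The higher gene was another of the listed targets. CTCF had 0 higher and 2 lower (5.06%), LCL 3 and 3 (8.49%), with Gsc at 2.15 ± 0.24 and Pmepa1, a feedback inhibitor of TGF-beta signalling, at -1.23 ± 0.12, and CLC 0 of 63 (1.95%), with 4984 of all genes at an unadjusted p under 0.05. The median log2 fold change of the list lay between -0.17 and 0.10 over the 16 comparisons.

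Over the means of the 16 line and condition groups, the genes whose pattern was most like that of a member were, by Pearson correlation, Wif1 (0.910), Dpep3 (0.896) and Cgref1 (0.893) for Tgfb1, Lrrc20 (0.882), Dcun1d4 (0.881) and 6330410L21Rik (0.857) for Tdgf1, and Wnk2 (0.960), Cort (0.956) and Cyp46a1 (0.954) for Cited1. For Lefty2 they were Gm6395 (0.896), Gm8325 (0.863) and Lefty1 (0.854), and for Lefty1 Gm8325 (0.913), Zfy1 (0.900) and Gm6395 (0.898). The lists for the remaining genes were those of Nodal (Fzr1, 0.979, Prmt6, 0.974, and Dcaf11, 0.974), Gdf3 (Cdc42se1, 0.984, Arpc4, 0.979, and Ly6a, 0.979), Smad7 (Dnajb12, 0.982, Stk35, 0.979, and Tdrp, 0.978), Id1 (Tcfl5, 0.952, Sycp3, 0.947, and Ager, 0.939) and Id3 (Apmap, 0.969, Rab11fip5, 0.967, and Wbp11, 0.966). The groups of a line may share clone and preparation, so these values are descriptions. Once each line's own mean was removed, Gdf3 and Tgfb1 had a correlation of -0.91, Tdgf1 and Gdf3 0.81, Tdgf1 and Cited1 -0.83, and Lefty1 and Lefty2 0.71.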

How the data were processed

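The RNA-seq values were deposited as normalized counts, a signal that the authors made by aligning reads to GRCm38/mm10 with STAR, counting per gene (the submitters' processing notes name HTSeq, with no strand setting given in the sources used here, and Trim Galore 0.4.4 and SAMtools 1.3) and dividing each library by 1 size factor. The FLAG and RAD21 reads had been mapped with Bowtie2 by the authors, who dropped duplicates and ran MACS on each library alone (q threshold 0.05), and the deposited columns used were the −log10 q and the fold enrichment over local background. Other columns of these files, and the Hi-C domain files, were not used here.

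The 10 genes, the pathway list of 79 genes and the marker lists were chosen with earlier results of these data known. All 10 genes are named in the text, and of the pathway list at most 4 called genes per comparison, those with the largest log2 fold changes, except 1 gene that is not reported here. For those in I against U, calls in further lines were added after their values had been seen. The comparisons of doxycycline effects between lines, and the crossed pairing, were added after the results of each line had been seen.

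Values were taken as log2(normalized count + 1), so that changes of low genes are understated, and genes with a mean of at least 10 normalized counts in a line were fitted with limma 3.58.1 (R 4.3.3), with the 4 conditions of a line in 1 fit. Comparisons between lines used 1 fit over all 38 libraries, in which the CTCFL line served as the common reference. P-values are two-sided and adjusted by Benjamini-Hochberg over all genes tested. The procedure was tested on simulated data for I against U within a line, with genes well above the filter changed beyond the size threshold. Low genes, changes near the threshold, differences between effects and the fit over all lines were not covered by it. Values of up to 500 reads were whole multiples of a step within 0.1 in 36 of the 38 libraries, which gave the depth and let edgeR 4.0.16 and DESeq2 1.42.0 be run on the recovered reads, and 2 CTCFL line libraries (I replicate 2 and ID replicate 2), whose reads were not recovered, were left out of those tests alone. Depth limits precision mainly for genes with few reads, such as Lefty1 and Id3 in the CTCFL line.

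Sites were peaks overlapping between both replicates, at a start when centred within 3 kb of an annotated start site, and near a gene within 25 kb of it, counted over 21938 protein-coding genes. Gene positions and start sites were from GENCODE, and sequences and promoters from RefSeq, both for GRCm38. Windows were searched with Python 3.11.15. Alternatives were a pseudocount of 5, no filter or a minimum mean of 50, other scaling, other groupings of libraries in the fit, a replicate block, edgeR, DESeq2, leaving out each library, and for sites a −log10 q of at least 5 and windows of 1 and 10 kb.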

Additional observations from a re-analysis of the deposited data

Results flagged for a closer look

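The effect of doxycycline without endogenous CTCF, tested against that with it by an interaction term on the log2 scale, differed for Lefty2 in LCL by 2.04 and in CLC by 2.11, and in CLC for Cited1 by -2.50 and for Id3 by 1.27. Transgene RNA also differed between D and ID in LCL and CLC, which cannot be told apart from the loss of CTCF.

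The effect of IAA was tested in the same way against that in the CTCFL line. It differed in LCL for Lefty1 by -1.87 and Lefty2 by -1.52, and in CLC for Cited1 by 1.04, a difference that edgeR and DESeq2 did not call.

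The effect of doxycycline differed from that in the CTCFL line in CTCF for Tgfb1 by -1.12, Tdgf1 by 1.00 and Cited1 by -1.30. For LCL the differences were -1.22 for Tgfb1, 1.26 for Tdgf1, -2.18 for Lefty2, -1.42 for Cited1, 1.01 for Smad7 and -1.53 for Id3. For CLC they were -1.95 for Tgfb1, 1.04 for Tdgf1, -1.40 for Lefty2 and -1.72 for Id3. The line and its transgene cannot be told apart in these comparisons, and all of them share the CTCFL libraries.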

How the results depend on the processing

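Of 313 values of called genes recomputed under other settings, 298 kept their direction and their call, 15 kept their direction and lost the call, and 0 reversed. With single libraries left out, 231 of 290 kept the call, 59 lost it and 0 reversed. Where this left a group with 1 library (ID of CTCFL, U of CTCF and every group of LCL and CLC), that library was assumed to vary like the other groups.

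The number of the 10 genes called changed in these cases, whose causes were not tested. I against U in the CTCFL line gave 0 with a minimum mean of 50, where Lefty1 is not tested, and 0 with edgeR. In the CTCF line it gave 2 when only both groups were fitted, with DESeq2 and with all lines in 1 fit. The fit of all lines gave 1 in CLC for I against U, 2 for D against U and 1 for ID against I. The IAA difference of CTCF was 2 with DESeq2, and that of CLC was 0 with a pseudocount of 5, without a filter, and with edgeR or DESeq2. FLAG sites at starts within 1 kb were found for 3 genes in CTCF D, 3 in CTCF ID, 1 in CLC D and 0 in CLL D, LLC D and LLC ID, and within 10 kb for 8 in CTCF D, 8 in CTCF ID, 8 in LCL D, 9 in LCL ID, 5 in CLC D, 6 in CLL ID and 2 in LLC ID. A −log10 q of at least 5 left 3 in LCL D.

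Leaving out single libraries gave 0 to 1 called genes for I against U in the CTCFL, LCL and CLC lines, 0 to 2 in CTCF, 1 to 2 for D against U in CTCF and LCL, 0 to 0 for D against U in CLC, 1 to 3 for ID against U and 0 to 1 for ID against I in CTCF, 1 to 2 for the difference of doxycycline effects without and with CTCF in LCL and 1 to 3 in CLC, 0 to 1 for the IAA difference of CTCF and CLC and 1 to 2 of LCL, 2 to 5 for the doxycycline difference of CTCF, and 1 to 2 genes with a site in CLL D and 3 to 5 in CLL ID.

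Same-numbered libraries did not deviate together (correlations from -0.30 to 0.16), so the numbers do not pair them. Some differently numbered libraries did, with correlations of up to 0.30 in CTCF and 0.25 in CLC, and what they share is not known. With the replicate block the difference of doxycycline effects in CLC was called for 1 gene and the IAA difference of CLC for 0. The calls absent with the block were Cited1 and Id3 in the former, Cited1 in the latter, and the doxycycline differences of Tdgf1 in CTCF and Id3 in LCL. Over all genes the block gave 28 calls in place of 76 for D against U in CTCF, 22 in place of 92 in CLC, 164 in place of 299 for ID against I in CLC and 513 in place of 932 for the difference of effects in CLC. A crossed pairing of CLC I and ID, chosen after seeing the data, gave 651 calls. DESeq2 gave 258 calls for D against U in CLC, 483 for ID against I in CLC and 111 in place of 61 for the IAA difference of CTCF.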
